A study of Capra hircus with 11 samples.

Results

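A set of 9 miRNAs known chiefly from epithelia was followed in goat omental fat: bta-miR-200a, bta-miR-200b, bta-miR-200c, bta-miR-141, bta-miR-429, bta-miR-375, bta-miR-192, bta-miR-194 and bta-miR-215, whose bovine prefix is mostly left out here. They were chosen by name, in any arm, from the 637 mature miRNAs listed for the tissue, and each matched 1 entry. The separate entries miR-194b and miR-194b-3p fell outside these names and were not counted as members. The samples were omental adipose tissue of 11 lactating Alpine goats (Capra hircus) at peak lactation, 48 ± 2 days after kidding at the start, all held for 2 weeks on orchardgrass hay and concentrate at 35:65. In the last 48 h before slaughter 5 control goats ate the same diet freely and 6 were deprived of feed. Each library came from 1 goat and from bulk tissue, in which fewer cells of a type and less RNA per cell cannot be told apart. The file of feed-deprived replicate 1 lists 629 miRNAs and does not list miR-200b, so that member has values in 10 goats.

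The miR-200 family lies in a pair of genomic clusters. One holds miR-200a, miR-200b and miR-429, the other miR-200c and miR-141, and the family is best known for keeping cells epithelial by repressing the transcription factors ZEB1 and ZEB2. Within it miR-200b, miR-200c and miR-429 share a seed, the short stretch that pairs with targets, and miR-200a and miR-141 share another that is close to it. miR-375 is a miRNA of pancreatic islets and of glandular and neuroendocrine epithelia. miR-192, miR-194 and miR-215 are abundant in intestine, liver and kidney, and miR-192 and miR-215 are near-identical copies with 1 shared seed. Fat consists mainly of adipocytes, stromal cells, vessels and blood cells, and the omentum is in addition covered by mesothelium, a thin epithelium-like layer for which no single marker miRNA is known. RefSeq's gene table for goat assembly ARS1.2 holds 8 of the 9 members by symbol, and there MIR429, MIR200A and MIR200B followed each other with 0 other genes between them. MIR141 neighboured MIR200C and MIR194 neighboured MIR215 in the same way.

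The deposited value is a read count divided by 1 factor per library, called normalised reads here, and the whole reads behind it were recovered. The libraries held 16974441 to 25389788 miRNA reads, and mean depth did not differ detectably by feeding (exact two-sided permutation p = 0.251). Miscounting by chance is large for the rare members. A count of 1 read has an exact 95% Poisson interval of 0.0253 to 5.57 reads, and the 304 reads of miR-375 in feed-deprived replicate 6 one of 271 to 340. Reads carry no molecular identifiers, so these intervals cover counting error only.

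Levels of the 9 members spanned a wide range, and most of their reads came from a single one. bta-miR-192 held 1562 ± 261 reads per 1000000 miRNA reads (CPM; SD, n = 11), which placed it 41st to 49th among the listed miRNAs of each library. It supplied 89.3% to 96.7% of the members' reads. bta-miR-194 followed at 48.4 ± 10.7 CPM (SD, n = 11), miR-215 at 15.4 ± 31.1 CPM (SD, n = 11) and miR-141 at 9.71 ± 3.76 CPM (SD, n = 11). The remaining members were rarer: miR-375 had 2.95 ± 3.31 CPM, miR-200a 2.76 ± 2.37 CPM, miR-429 0.654 ± 0.490 CPM and miR-200c 0.291 ± 0.169 CPM (SD, n = 11 each). miR-200b had 0.728 ± 0.515 CPM (SD, n = 10). All mature miRNAs have nearly the same length, so CPM needs no length correction, but adapter ligation favours some sequences and the order is one of reads, not of molecules.

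Neighbours in that order were not always apart. miR-192 exceeded miR-194 in 11 of 11 libraries, and miR-194 exceeded miR-215 in 10. miR-215 stood above miR-141 by its mean but exceeded it in only 2 libraries, feed-deprived replicates 1 and 2. miR-141 exceeded miR-375 in 10 of 11. miR-375 and miR-200a did not order themselves: miR-375 was higher in 6 libraries, equal in 1 and lower in the rest. miR-200a exceeded miR-200b in 10 of 10 libraries, whereas miR-200b exceeded miR-429 in 3 of 10. miR-429 exceeded miR-200c in 8 of 11.

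**Figure D1:**
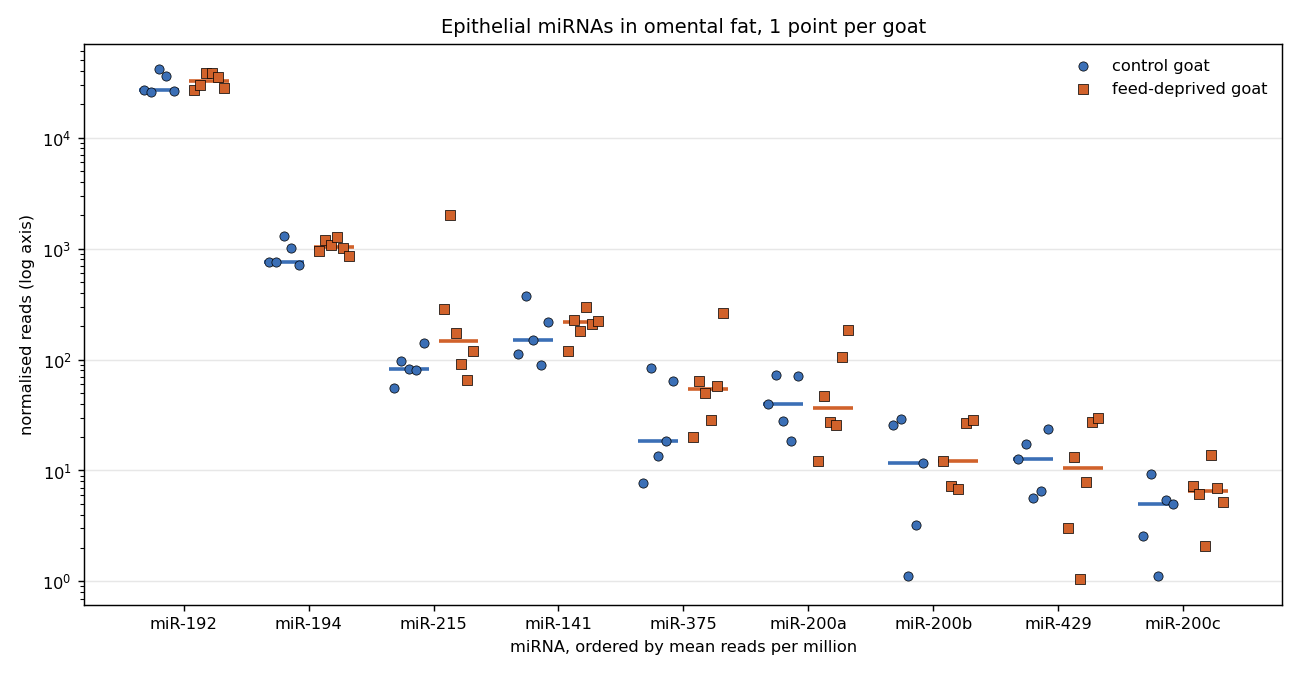
Normalised reads of the 9 miRNAs on a log axis, 1 point per goat, with controls as circles and feed-deprived goats as squares; horizontal lines are group medians. miR-192 and miR-194 form tight groups, miR-215 has 1 feed-deprived goat at 2008 and miR-375 has 1 at 265, and the groups overlap for each miRNA.

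In the cluster of miR-200a, miR-200b and miR-429, the goats differed widely within each group. bta-miR-200a had 39.6, 73.1, 28.04, 18.3 and 71.2 normalised reads in control replicates 1 to 5, and 12.1 to 183 with a median of 36.9 in the 6 feed-deprived goats. Feed-deprived replicates 5 and 6, at 105 and 183, lay above all controls, replicate 1 lay below all of them, and the other 3 lay among them. Its recovered reads ran from 17 to 210 per library.

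bta-miR-200b had 25.5, 29.3, 1.12, 3.23 and 11.7 normalised reads in the controls. In the feed-deprived goats that list it, replicates 2 to 6, it had 12.2, 7.31, 6.85, 26.6 and 28.8. Every feed-deprived value fell inside the control range, although in CPM 2 of the 5 exceeded it. The lowest control, replicate 3, rested on 1 read, and the highest count of any library was 33.

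bta-miR-429 had 12.8, 17.3, 5.61, 6.47 and 23.5 normalised reads in the controls, and 1.04 to 29.7 with a median of 10.5 after feed deprivation. As for miR-200a, feed-deprived replicates 5 and 6 stood above all controls. Replicates 1 and 3 stood below all of them, and replicate 3 had a single read.

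The other cluster was uneven in level. bta-miR-141 had 112, 375.01, 151, 88.4 and 220 normalised reads in the controls and 118 to 297 with a median of 217 after feed deprivation. All 6 feed-deprived goats lay within the control range, whose extremes were control replicate 2 at the top and control replicate 4 at the bottom. miR-200c, whose hairpin neighbours that of miR-141, had 2.55, 9.31, 1.12, 5.39 and 5.03 normalised reads in the controls and 2.09 to 13.7 with a median of 6.49 after feed deprivation. It had 68 reads in all libraries together, 1 to 14 per library, and 1 feed-deprived goat, replicate 4, lay above all controls. The ratio of miR-141 to miR-200c reads ran from 16.3 to 135 with a median of 40.3. miR-141 alone made up 47.6% to 84.7% of the family's reads, with a median of 74.4%.

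bta-miR-375 had the widest range after miR-215. Controls had 7.66, 83.8, 13.5, 18.3 and 63.7 normalised reads, so that replicates 2 and 5 stood well above the other 3. Feed-deprived goats had 20.02 to 265 with a median of 54.1. Of these, replicate 6 lay above all controls and the other 5 fell among them.

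miR-192 and miR-194 were far steadier. miR-192 had 26769, 25647, 41229, 35842 and 26296 normalised reads in the controls and 26985 to 38706 with a median of 32616 after feed deprivation. Its highest goat exceeded its lowest 1.61-fold, and all feed-deprived goats lay within the control range. miR-194 had 757, 750.02, 1311, 1009 and 714 normalised reads in the controls and 859 to 1264 with a median of 1041 after feed deprivation, again all within the control range. That overlap depended on the scaling: in CPM the highest control was exceeded by 4 of 6 feed-deprived goats for miR-192 and by 4 of 6 for miR-194.

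bta-miR-215 did not share that steadiness. Controls had 54.9, 97.1, 81.9, 79.8 and 142 normalised reads. Feed-deprived goats had 64.9 to 2008 with a median of 146: replicate 2 was highest with 1979 recovered reads, replicate 1 followed at 286 and replicate 3 at 172, and these 3 lay above all controls. The other 3 fell among the controls.

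The spread between goats of the same group ranged widely among the 8 members for which it could be fitted. It was measured as the residual SD of log2(normalised reads + 1) in a linear model of feeding fitted to every tested miRNA. Its median over the 360 tested miRNAs was 0.43. miR-215 had 1.36, miR-375 1.34, miR-429 1.28 and miR-200a 1.19, higher than or equal to at least 96.4% of tested miRNAs. Rare miRNAs vary more from counting alone, so the variance trend, the SD typical at the same mean level, is the fairer reference. These 4 exceeded the trend by 1.86-fold (miR-429) to 3.25-fold (miR-215). miR-200b, in the fit of the 10 libraries that list it, had an SD of 1.35, 2.04 times its trend. miR-141 was closer, with an SD of 0.64, 1.53 times the trend. miR-192, with 0.27, sat on the trend (1.00 times), and miR-194, with 0.29, lay below it (0.776 times). These are descriptions with no test.

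**Figure D2:**
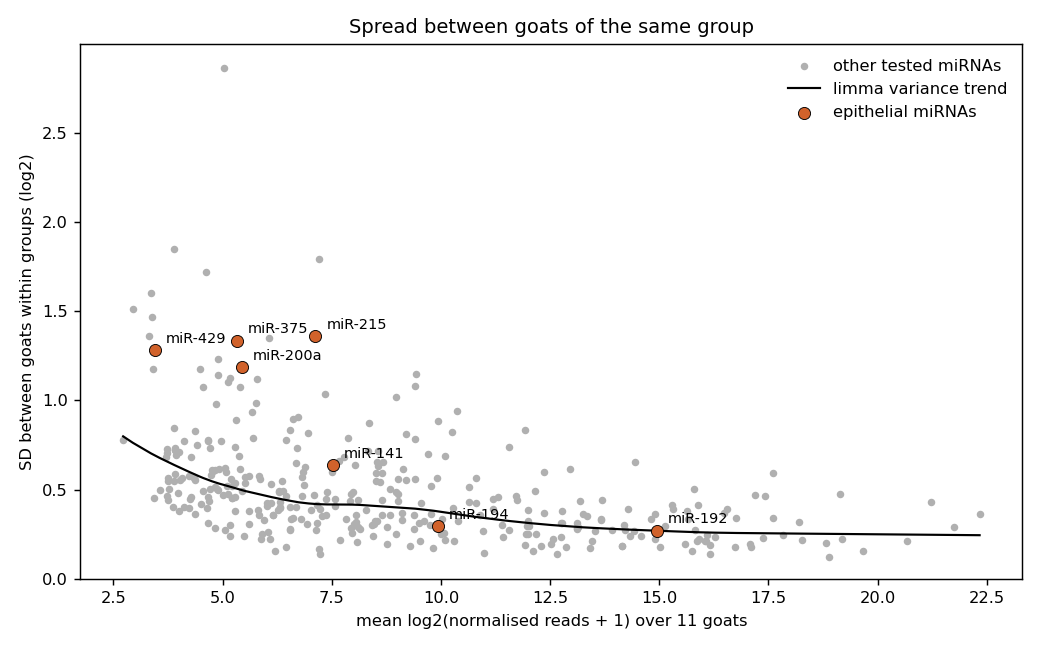
Residual SD between goats of the same group (log2) against mean log2(normalised reads + 1) for 360 tested miRNAs, with 7 epithelial miRNAs in orange and limma's variance trend as a line. miR-215, miR-375, miR-200a and miR-429 stand above the trend, and miR-192 and miR-194 lie on or under it.

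The goats with high values were partly the same for different members. Control replicate 2 was among the 3 highest libraries for 5 members: miR-200a, miR-200b, miR-200c, miR-141 and miR-375. Feed-deprived replicate 6 was among them for 4, namely miR-200a, miR-200b, miR-429 and miR-375, and feed-deprived replicate 5 for 3, namely miR-200a, miR-200b and miR-429. Feed-deprived replicate 2 was among them for miR-141, miR-375, miR-194 and miR-215. For feed-deprived replicate 4 the members were miR-200c, miR-141, miR-192 and miR-194. Control replicates 1 and 4 were among the 3 highest for 0 members, and among the 3 lowest for 6 and 5. Both feeding groups thus held goats at the top and goats at the bottom, although the 3 lowest sums described next were all controls.

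Summed over the miR-200 family, the level was 22.3 CPM in control replicate 2, 21.7 in feed-deprived replicate 6, 19.2 in feed-deprived replicate 5 and 17.4 in control replicate 5. It was 16.5, 15.7 and 10.8 CPM in feed-deprived replicates 2, 4 and 3. The low end held feed-deprived replicate 1 at 9.14, a sum without miR-200b, and control replicates 1, 3 and 4 at 8.78, 7.61 and 5.70 CPM. Control goats averaged 12.4 ± 7.16 CPM (SD, n = 5) and feed-deprived goats 15.5 ± 4.796 CPM (SD, n = 6), and the group ranges overlapped. The sum without miR-141 gave another top, feed-deprived replicate 6 at 11.4 CPM, followed by feed-deprived replicate 5 at 8.48 CPM.

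**Figure D3:**
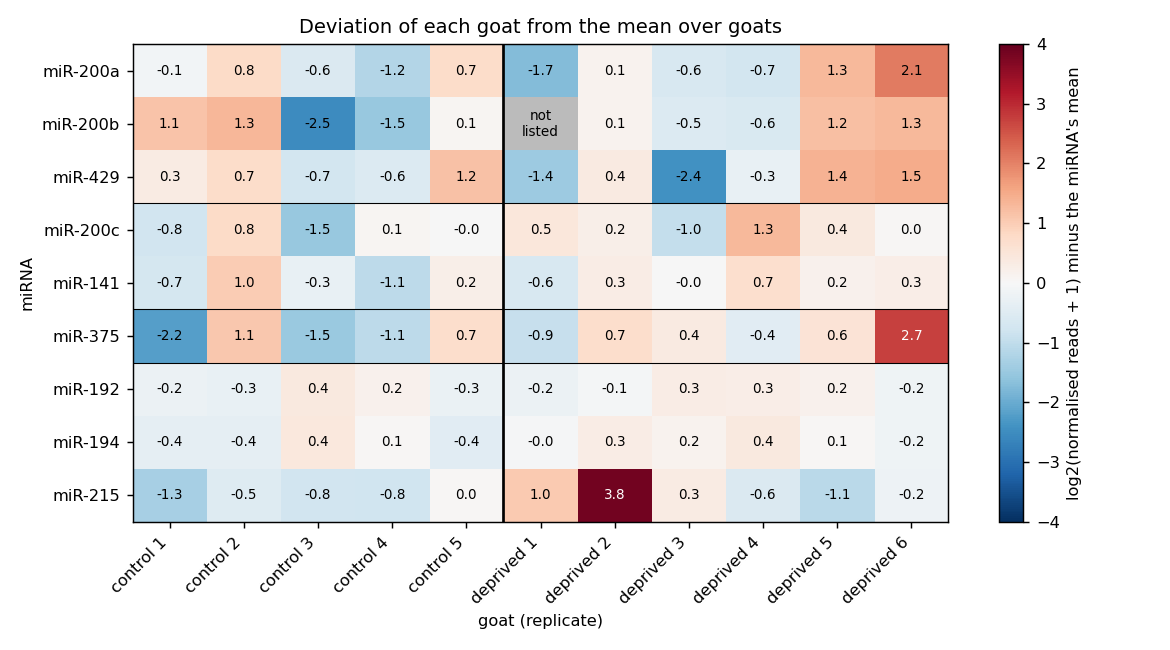
Heat map of log2(normalised reads + 1) minus each miRNA's mean over goats, with miRNAs in rows by cluster and goats in columns, controls left of the thick line; grey marks the miRNA that 1 library does not list. Feed-deprived replicates 2, 5 and 6 and control replicates 2 and 5 are above the mean for miR-200a, miR-200b, miR-429 and miR-375. The miR-192 and miR-194 rows stay near 0, and feed-deprived replicate 2 is high in the miR-215 row.

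Markers of other cell types gave a setting for these levels. The mesenchymal list, with 6 of 6 names listed and miR-143 the most abundant, summed to 388795 to 508212 CPM in controls and 383144 to 507309 CPM after feed deprivation. The fat list, with 6 of 6 names and miR-26a the most abundant, summed to 117367 to 166437 and 119261 to 204579 CPM. Both lists name miRNAs abundant in fat, and none marks it alone.

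Other epithelial and glandular miRNAs were as rare as the miR-200 family. The files list 5 of 6 of them, and they summed to 7.46 to 12.8 CPM in controls and 9.48 to 19.6 CPM after feed deprivation. miR-7, a neuroendocrine miRNA, was the most abundant of them, and miR-96, of sensory epithelia, had 0 reads in 7 libraries. A count of 0 allows up to 3 reads, or 0.118 to 0.177 CPM depending on the library. In CPM the 5 did not share a highest goat: miR-7 peaked in feed-deprived replicate 1, miR-183 in control replicate 3, miR-96 in feed-deprived replicate 2, and miR-182 and miR-205, the latter of stratified epithelia, in control replicate 2.

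Markers of neighbouring organs were also near the floor, with exceptions in single goats. The 3 pancreas acinar miRNAs summed to 0.177 to 0.546 CPM in controls and 0.402 to 1.31 CPM after feed deprivation, with miR-217 and miR-216b each at 0 reads in 4 libraries. The 2 liver miRNAs summed to 0.273 to 8.52 CPM in controls and 0.481 to 4.92 CPM after feed deprivation. The liver miRNA miR-122 reached 7.73 CPM in control replicate 5, 4.32 CPM in feed-deprived replicate 5 and 1.71 CPM in control replicate 2, against 0.0504 to 0.674 CPM elsewhere. These 3 goats also had high sums of the miR-200 family. Feed-deprived replicate 6, also among the highest in that sum, had 0.402 CPM of miR-122. In normalised reads, control replicates 2 and 5 had the lowest miR-192 (25647 and 26296) and miR-194 (750 and 714) of all goats. Feed-deprived replicate 5 had 35459 and 1005. miR-215 stood at 97.1, 142 and 64.9 in control replicates 2 and 5 and feed-deprived replicate 5. That order depended on the scaling. In CPM control replicate 2 remained lowest for miR-192 (1136) and miR-194 (33.2). Control replicate 5, at 1386 and 37.6 CPM, lay above control replicate 1, at 1219 and 34.5 CPM. All 5 ciliated cell miRNAs were listed and summed to 3.06 to 9.53 and 4.26 to 10.99 CPM, with miR-449b at 0 reads in 6 libraries and miR-449c in 5. The part of any of these tissues in the members' levels was not tested.

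Related members kept a steadier ratio in some pairs than in others. For 8 pairs the correlation of log2(normalised reads + 1) over the libraries was tested by permutation with 100000 resamples, two-sided, and p-values were adjusted over the 8 by Benjamini-Hochberg. miR-192 and miR-194 moved together, with Pearson's r = 0.83 (adjusted permutation p = 0.0238) and Spearman's rho = 0.91 (adjusted permutation p = 0.00216) over 11 goats. Without control replicate 3 and feed-deprived replicate 3, the goats farthest from the median of miR-192, r was 0.78 (adjusted exact permutation p = 0.0978) and rho 0.92 (adjusted exact permutation p = 0.0105). With library totals as the scaling r was 0.87 (adjusted permutation p = 0.0096) and rho 0.68 (adjusted permutation p = 0.0694). The ratio of their reads stayed between 25.1 and 36.8.

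miR-194 and miR-215, whose hairpins neighbour each other in the goat gene table, kept no such ratio. Reads were counted per mature miRNA, and whether all miR-194 reads came from that hairpin was not tested. Reads of miR-194 were 5.01 to 16.01 times those of miR-215 in controls, and 0.591 to 15.5 times in feed-deprived goats. The lowest ratio belonged to feed-deprived replicate 2, where miR-215 was highest while miR-194 stood at 1187 normalised reads, inside the control range. miR-192 and its near-copy miR-215 had r = -0.20 (adjusted permutation p = 0.642) and rho = -0.12 (adjusted permutation p = 0.735). How the authors' counting divided reads between these near-identical miRNAs is not given in the sources used here, so their split is uncertain.

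In the miR-200a cluster, miR-200a and miR-200b had r = 0.77 (adjusted permutation p = 0.0398) and rho = 0.84 (adjusted permutation p = 0.0154) over 10 goats. Without feed-deprived replicates 5 and 6 the values were 0.71 (adjusted exact permutation p = 0.1201) and 0.76 (adjusted exact permutation p = 0.147), and so neither passed. Within groups, after centring on the group mean, r was 0.75 (adjusted permutation p = 0.0633) and rho 0.78 (adjusted permutation p = 0.0434). For miR-200b and miR-429, rho was 0.78 (adjusted permutation p = 0.0283), whereas r was 0.66 (adjusted permutation p = 0.1001). Without control replicates 3 and 4 rho was 0.69 (adjusted exact permutation p = 0.185) and r 0.70 (adjusted exact permutation p = 0.0978), and centred on group means rho was 0.70 (adjusted permutation p = 0.0799). The ratio of miR-200a to miR-200b was 1.55 to 25 in controls and 3.71 to 6.36 in feed-deprived goats, the highest value resting on 1 read of miR-200b.

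The other 4 pairs were not past the threshold of 0.05. miR-200c and miR-141 had r = 0.49 (adjusted permutation p = 0.206) and rho = 0.51 (adjusted permutation p = 0.182). miR-200b and miR-200c, from different clusters but with 1 seed, had r = 0.42 (adjusted permutation p = 0.308) and rho = 0.37 (adjusted permutation p = 0.337). miR-200b and miR-375 had r = 0.52 (adjusted permutation p = 0.206) and rho = 0.67 (adjusted permutation p = 0.0783). miR-192 and miR-375 had r = -0.27 (adjusted permutation p = 0.481) and rho = -0.38 (adjusted permutation p = 0.330). Without the 2 goats farthest from the median, r was 0.40, -0.015, 0.20 and -0.17 for these pairs in turn, and -0.19 for miR-192 and miR-215, and 0 of these passed. The goats were the points in each pair, and depth, tissue and scaling factor were shared by both members.

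**Figure D4:**
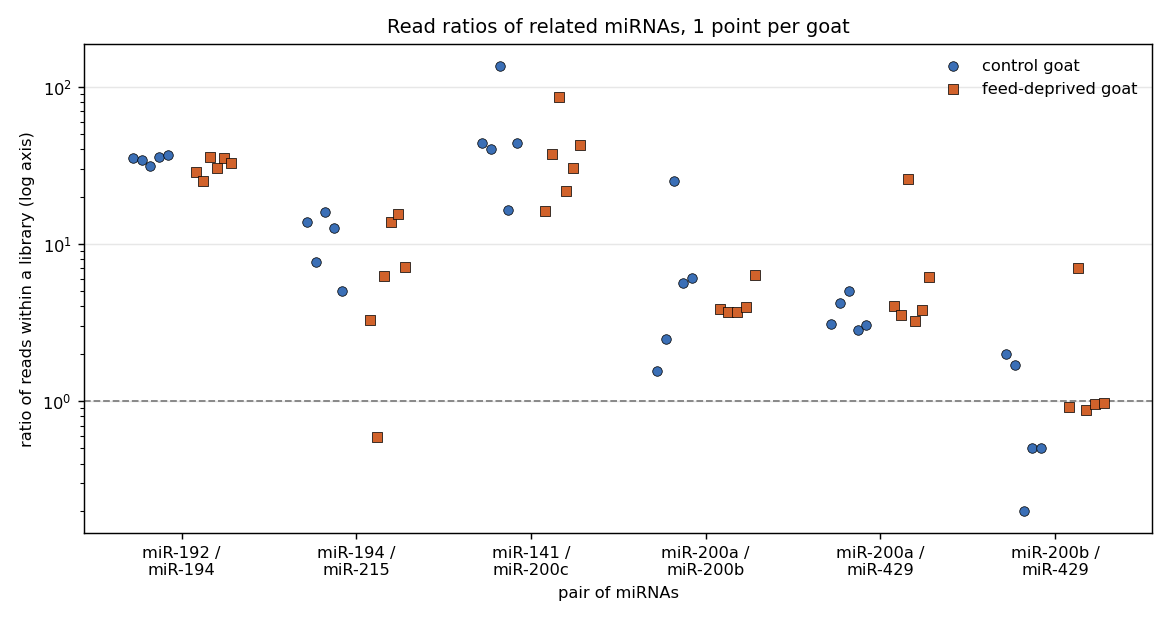
Ratio of reads within each library for 6 pairs of related miRNAs on a log axis, 1 point per goat, circles for controls and squares for feed-deprived goats; the dashed line marks a ratio of 1. The ratio of miR-192 to miR-194 stays within 25.1 to 36.8, that of miR-194 to miR-215 falls to 0.591 in 1 feed-deprived goat, and ratios with miR-200b or miR-200c scatter widely.

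Outside the set, the miRNAs most like 3 of the members in their order over goats were looked up among 187 with a mean of at least 10 CPM. For miR-200b they were miR-26a (Spearman's rho 0.82), miR-204 (0.79) and miR-146b (0.78) over 10 libraries. For miR-192 they were miR-3431 (0.85), miR-1271 (0.85) and miR-381 (0.77), and for miR-375 miR-199c (0.78), miR-130a (0.75) and miR-199a-3p (0.72), over 11 libraries. Each is the top of 187 values chosen for being highest, and is given as a description.

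Among the 8 tested members, none differed between feed-deprived and control goats past the threshold. The question of the comparison is how a complete loss of feed for 48 h alters the miRNAs of a fat depot. limma on log2(normalised reads + 1) called 0 of the 8 tested members higher and 0 lower at a Benjamini-Hochberg adjusted p under 0.05. In the fit of all 11 libraries, which held 7 of them, 3 of 360 miRNAs were called higher (0.833%) and 0 lower (0%). bta-miR-200b was fitted without feed-deprived replicate 1, which does not list it, and that fit called 0 of 362 in either direction (0%). At an unadjusted p under 0.05 limma had 0 of the 8 members, against 11.7% of miRNAs over 11 libraries and 9.12% over 10.

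The count tests on the recovered reads called 0 members as well. edgeR called 0.833% of miRNAs higher and 0% lower over 11 libraries, and 0% over 10. DESeq2 called 2.5% higher and 0% lower over 11 libraries, and 1.38% higher and 0.276% lower over 10. Over 11 libraries each had 1 of 7 members, miR-215, at an unadjusted p under 0.05, against 11.7% of miRNAs in edgeR and 11.4% in DESeq2. Over 10 libraries, where those shares were 9.39% and 9.67%, miR-200b did not reach it in either. There miR-215 reached it in edgeR (unadjusted p = 0.0152), whereas DESeq2 gave miR-215 a log2 fold change of 2.39 but no p-value. bta-miR-200c did not pass the filter on low counts and was tested only in the fit with no filter. For 0 of the 9 members did the groups separate without overlap in normalised reads. Among tested miRNAs 1.67% separated with feed-deprived goats higher and 0% with them lower over 11 libraries, and 1.38% and 0.276% over 10.

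The largest differences depended in size on single goats. miR-215 averaged 91.2 ± 32.4 normalised reads in the 5 controls and 457 ± 764 in the 6 feed-deprived goats (SD). Its log2 fold change in limma was 1.22 ± 0.70 (SE, adjusted p = 0.521). Without feed-deprived replicate 2 it was 0.56. The difference was larger in tests that average reads rather than logs, at 2.27 in edgeR (adjusted p = 0.277) and 2.31 in DESeq2 (adjusted p = 0.142). miR-375 averaged 37.4 ± 34.1 and 81.0 ± 91.9 normalised reads, and its log2 fold change in limma was 1.09 ± 0.69 (SE, adjusted p = 0.637). All 6 feed-deprived goats exceeded the control median, and without feed-deprived replicate 6 the value was 0.64.

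Within the miR-200 family the intervals were wide. miR-200a averaged 46.1 ± 25.02 and 66.7 ± 65.9 normalised reads, with a log2 fold change of 0.14 and a 95% interval of -1.19 to 1.48 (limma adjusted p = 0.984). It ran from -0.26 without feed-deprived replicate 6 to 0.50 without feed-deprived replicate 1, and was also negative without control replicate 4 (-0.13) or feed-deprived replicate 5 (-0.10). miR-429 averaged 13.1 ± 7.503 and 13.7 ± 12.3, with a log2 fold change of -0.34 and an interval of -1.82 to 1.13 (limma adjusted p = 0.938). Without feed-deprived replicate 3, the goat with a single read, it was 0.11, and without feed-deprived replicate 6 it was -0.67. miR-200b averaged 14.2 ± 12.8 in 5 controls and 16.3 ± 10.6 in 5 feed-deprived goats, with 0.59 and an interval of -0.99 to 2.17 (limma adjusted p = 0.892). Leaving out 1 more goat moved it between 0.04 (control replicate 3) and 0.99 (control replicate 2). miR-141 averaged 189 ± 115 and 210 ± 59.0, with 0.29 and an interval of -0.46 to 1.03 (limma adjusted p = 0.872), and leaving out 1 goat moved it between 0.06 (control replicate 4) and 0.58 (control replicate 2). miR-200c, tested only with no filter, averaged 4.68 ± 3.13 and 6.88 ± 3.82 normalised reads, with a log2 fold change of 0.52 and an interval of -0.47 to 1.52 (limma adjusted p = 0.847). It rested on 21 control and 47 feed-deprived reads.

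The steady pair was bounded more tightly. miR-192 averaged 31157 ± 7011 normalised reads without and 32877 ± 5233 with feed deprivation, and had a log2 fold change of 0.09 and an interval of -0.26 to 0.44 (limma adjusted p = 0.938). It was 0.03 without control replicate 2 and 0.20 without control replicate 3. miR-194 averaged 908 ± 254 and 1056 ± 151, with 0.25 and an interval of -0.18 to 0.67 (limma adjusted p = 0.755). Each of the 6 feed-deprived goats exceeded the control median of both. For miR-192 the lowest of them, at 26985, barely passed that median of 26769. The highest control of miR-192, at 41229, exceeded all 6. The share of all tested miRNAs with this pattern was not counted. Scaled by library totals alone, the log2 fold changes were 0.25 for miR-192 (limma adjusted p = 0.599) and 0.41 for miR-194 (limma adjusted p = 0.466), beside the median of 0.16 over all tested miRNAs under that scaling. Leaving out 1 goat moved miR-194 between 0.17 (control replicate 5) and 0.39 (control replicate 3).

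**Figure D5:**
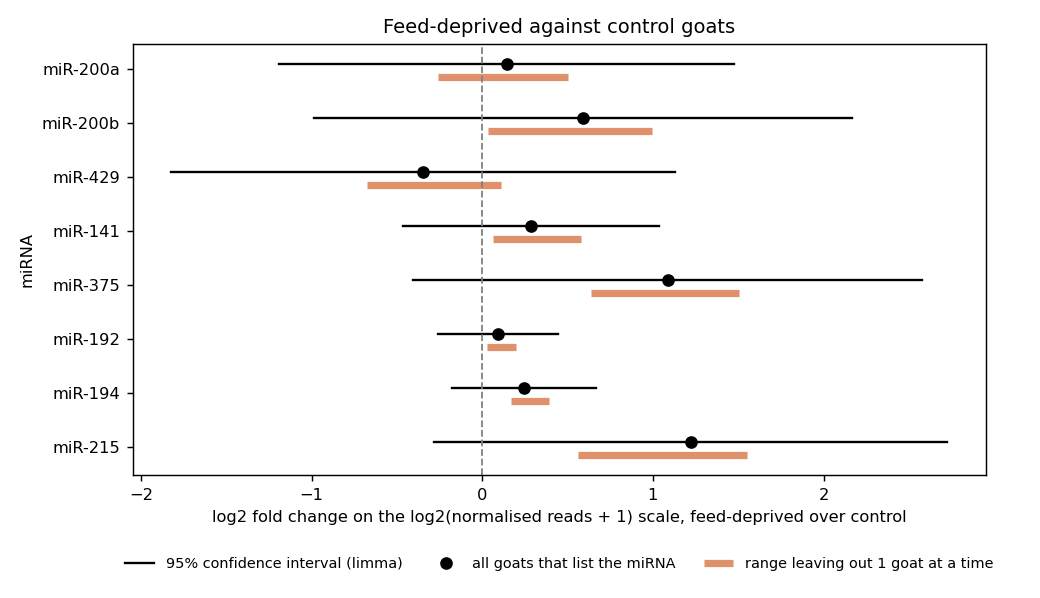
Log2 fold change, feed-deprived over control, of the 8 tested miRNAs on the log2(normalised reads + 1) scale, as points with limma's 95% confidence interval; orange bars give the range when 1 goat at a time is left out. Each interval includes 0, and those of miR-192 (-0.26 to 0.44) and miR-194 (-0.18 to 0.67) are the narrowest.

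Of the 7 members in the fit of all libraries 6 had positive values, with a median of 0.25, beside 50.8% positive and a median of 0.00397 among all 360 tested miRNAs. Scaling moved the whole table: the median over all tested miRNAs was -0.17 with upper-quartile factors and 0.16 with library totals. With upper-quartile factors miR-200a (-0.03) and miR-192 (-0.09) were negative, though above that median. Among the other lists, of 3 tested other epithelial miRNAs 0 passed in either direction. The same held for the 2 tested ciliated cell miRNAs and the 1 tested liver miRNA, and no pancreas miRNA had enough reads to be tested. Nor did any pass of the tested miRNAs of the endothelial (3), striated muscle (4), red cell (3), mesenchymal (7) and fat (8) lists. The leukocyte list had 1 of 7 called higher, miR-142-5p, beside 0.833% of all tested miRNAs. Its log2 fold change was 0.79 (limma adjusted p = 0.037), and 0.78 without feed-deprived replicate 1 (limma adjusted p = 0.102), where it was not called. Its sum was 1892 to 2947 CPM in controls and 2952 to 4664 CPM after feed deprivation. This list had 6 of 6 names listed and 0 at 0 reads in any library. It was the only list of the 11 whose summed ranges in CPM did not overlap between the groups. The ranges nearly touched, at 2947 and 2952 CPM, and sums in normalised reads were not compared. The list's most abundant miRNA was miR-142-5p (mean 1153 CPM), the one already called, so the sum is not a separate result. The share of all tested miRNAs that separate in CPM was not counted. The list's part in the members' values was not tested.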

How the data were processed

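Small RNA libraries of omental fat from 11 goats, 5 control and 6 feed-deprived, were prepared with Illumina's TruSeq chemistry for small RNA and read as single 50-base reads, per the labels' protocols. The authors deposited 1 normalised signal per mature miRNA and library. Names carry the bovine prefix, so goat sequences that differ may be undercounted. The sources used here do not give the trimming, aligner, miRNA database, build or normalisation tool.

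In every library 100% of non-zero values were whole multiples of the smallest, within 0.001 read, so whole reads were recovered; 1 read was worth 0.607 to 1.33. The labels give no batch or pairing, and replicates were numbered in accession order.

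Of the 629 miRNAs that every library lists, 360 passed edgeR's filterByExpr (minimum count 10). log2(value + 1), with a pseudocount of 1, was compared by limma 3.58.1 with robust moderation and a variance trend (two-sided, R 4.3.3), with Benjamini-Hochberg adjustment over all tested miRNAs and a threshold of 0.05. The pseudocount can draw log2 fold changes of rare miRNAs toward 0: that of miR-200b was 0.59, and 0.67 with a pseudocount of 0.5. They were not always smaller than in the count tests, where miR-200b had 0.28 in edgeR and 0.19 in DESeq2. miR-200b came from the same fit over the 10 libraries that list all 637 miRNAs, of which 362 were tested. The plan named edgeR for counts and limma for normalised values, so edgeR 4.0.16 and DESeq2 1.42.0 on recovered reads were alternatives, beside pseudocounts, filters, scalings, no variance trend and leaving out each goat. Code was tested on simulated data. Permutation tests used scipy 1.17.1 and numpy 2.4.6. The members, marker lists and tests were chosen with earlier results of these data known. All 9 members are named. miRNAs outside the set were named by marker list, by reads or by likeness to miR-200b, miR-192 and miR-375. The miR-194b entries were named because their names resemble that of miR-194. miR-96, miR-205, miR-216b, miR-217, miR-449b and miR-449c were named after their values were seen.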

Additional observations from a re-analysis of the deposited data

Results flagged for a closer look

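Of 18 sets of normalised reads, 1 per miRNA and feeding group, 2 held a goat set apart from the others by Dixon's criterion on the linear scale. The criterion assumes normally distributed values, for which chance gives about 1 in 20, and these reads are right-skewed. miR-215 stood at 2008 normalised reads in feed-deprived replicate 2, against 64.9 to 286 in the other 5 feed-deprived goats. miR-375 stood at 265 normalised reads in feed-deprived replicate 6, against 20.02 to 63.9 in the other 5. On the log2(normalised reads + 1) scale 0 of the 18 sets held such a goat, and the gap over the range was 0.569 for miR-215 and 0.556 for miR-375, both under the critical value of 0.625.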

How the results depend on the processing

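No paired analysis was possible because each goat was in 1 feeding group only and the labels give no pairing. The count of epithelial miRNAs past the threshold was 0 in each direction in all 21 alternatives, which were 10 other settings and 11 fits without 1 goat. Only 3 members were tested at a mean of 10 CPM or more. Of 162 alternative fold changes 154 kept their sign, and 0 passed. The 8 that changed sign were miR-200a and miR-192 with upper-quartile factors (-0.032 and -0.090), miR-429 in edgeR (0.053) and DESeq2 (0.045), miR-429 without feed-deprived replicate 3 (0.11), and miR-200a without control replicate 4 (-0.13), feed-deprived replicate 5 (-0.10) or feed-deprived replicate 6 (-0.26). Leaving out 1 goat gave miR-200a -0.26 to 0.50 and miR-429 -0.67 to 0.11. These 8 values lay within the 95% interval of the fit with all goats. By Pearson's r, the correlation of miR-200a and miR-200b lost its call when centred on group means (r = 0.75) and without the 2 goats farthest from the median (r = 0.71), and that of miR-192 and miR-194 in the second case (r = 0.78), where fewer goats were tested. By Spearman's rho, the first pair kept its call when centred and lost it without those goats, and the second kept it there but lost it with library totals (rho = 0.68). miR-200b and miR-429, called by rho alone, lost the call when centred (rho = 0.70) and without the 2 farthest goats (rho = 0.69). miR-200b and miR-200c went to r = -0.015 without the 2 farthest goats, and miR-192 and miR-215 to r = 0.22 with library totals. The cause of the other changes was not tested. With 1 to 34 reads per library, changes in miR-200b, miR-200c and miR-429 could be seen only if large.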
